A study of Mus musculus with 12 samples.

Results

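The endoplasmic reticulum (ER) of a hepatocyte folds the plasma proteins that the liver secretes, and the 34 genes described here encode the machinery for that work. They were chosen by symbol, as ER chaperones, oxidoreductases and isomerases, components of ER-associated degradation (ERAD) and stress sensors, and all 34 were found among 35498 genes of the count table. Livers came from male C57BL/6N mice of 9 to 12 weeks, taken 3 h after a meal that ended an overnight fast. No genetic change, treatment or other diet is named, and these conditions are shared by all libraries. In each of 6 mice, poly(A) RNA was sequenced from a postnuclear liver lysate and from the wrappER-associated mitochondria (WAM) fraction prepared from that same lysate. WAM are mitochondria isolated together with the rough ER wrapped around them. The lysate holds the RNA of every liver cell type and also the material from which WAM was taken, so it is a starting material and not a WAM-free fraction.

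A new secretory protein enters the ER through the translocon while its mRNA is held at the membrane by the translating ribosome. Inside, it meets the Hsp70 chaperone BiP, the lectins calnexin and calreticulin, and protein disulfide isomerases, and chains that do not fold are drawn back into the cytosol by ERAD and degraded by the proteasome. When unfolded chains accumulate, the sensors encoded by Ern1 and Eif2ak3 and the transcription factor Atf6 signal to the nucleus, and genes for chaperones and ERAD are transcribed through promoter elements known as ER stress elements. In liver, this response is also known to follow the feeding cycle.

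Lysate libraries held between 7400274 and 12024128 estimated counts, and WAM libraries between 8344196 and 9712455. All 34 genes passed the filter on low counts. Hepatocyte markers made up 4.57% to 7.88% of lysate counts. The 13 mitochondrially encoded mRNAs made up 2.19% to 3.29% of counts in lysates and 12.5% to 23.1% in WAM, lowest in mouse 2. Fold changes below are on the TMM scale, on which the median log2 fold change of all 11181 tested genes was -0.08. Libraries of 2 animals stood apart. Mouse 2 was low for many chaperones, and mouse 5 had 0.0510% of lysate counts in 8 neutrophil markers, against a median of 0.000555% over the 6 lysates.

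All 34 genes were higher in WAM than in lysate relative to the typical mRNA, by 1.92-fold to 3.34-fold. All 34 passed the test (edgeR quasi-likelihood, adjusted p from 1.33e-08 for Prkcsh to 0.00437 for Sdf2l1), against 29.2% of all tested genes called higher and 57.9% called in either direction. None was lower by edgeR, at an unadjusted p under 0.05 or by DESeq2, against 28.8% of all tested genes called lower by edgeR. The median log2 fold change of the 34 was 1.49, with standard errors (SE) from 0.09 to 0.42. The fit is on fraction alone, so these SEs also hold the differences of level between animals. At least a 2-fold change was found for 33 of 34, against 15.8% of all tested genes. In 28 of 34, the 6 WAM libraries lay above all 6 lysates in CPM (TMM-scaled counts per library, so that levels of 1 gene can be compared between libraries), against 20.3% of all tested genes. Within mice, all 34 were higher in WAM in 6 of 6 animals, against 30.0% of all tested genes. In a bulk fraction, fewer cells of a type and less RNA per cell cannot be told apart. The direction is relative to the median of all genes, and it was the same after re-centring under each other scaling tried. Re-centring sets the median of all genes back to that of the TMM scale, so this agreement is largely built in. Without re-centring, 18 of 34 were called higher with library totals, and with the authors' mitochondrial coefficient 34 of 34 were lower, as were nearly all genes.

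Most markers of hepatocytes, macrophages, endothelial cells and stellate cells moved with these genes on the same scale. Of 8 hepatocyte markers 7 were called higher in WAM (median log2 fold change 1.30), of 12 Kupffer cell and macrophage markers 10 (median 1.54), of 10 endothelial markers 10 (median 1.16), and of 10 stellate and fibroblast markers 8 (median 1.25). The other lists held few tested genes and did not all rise. Of 2 cholangiocyte markers tested, 1 was called higher and 1 lower, and of 4 B and plasma cell markers 2 were called higher. The 1 neutrophil marker and the 1 T and NK cell marker tested were not called. The summed share of hepatocyte markers lay between 4.68% and 9.56% of WAM counts, overlapping the lysates. That of macrophage markers lay between 0.0188% and 0.0739% of lysate counts and between 0.0276% and 0.0974% of WAM counts, which overlap as well. Many of these markers, such as Alb, encode secreted proteins, whose mRNAs are held at the ER membrane as well. From these lists, cell makeup and location at the ER cannot be told apart. No marker was at 0 in all libraries, and the part of cell makeup in the fold changes was not tested.

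**Figure D1:**
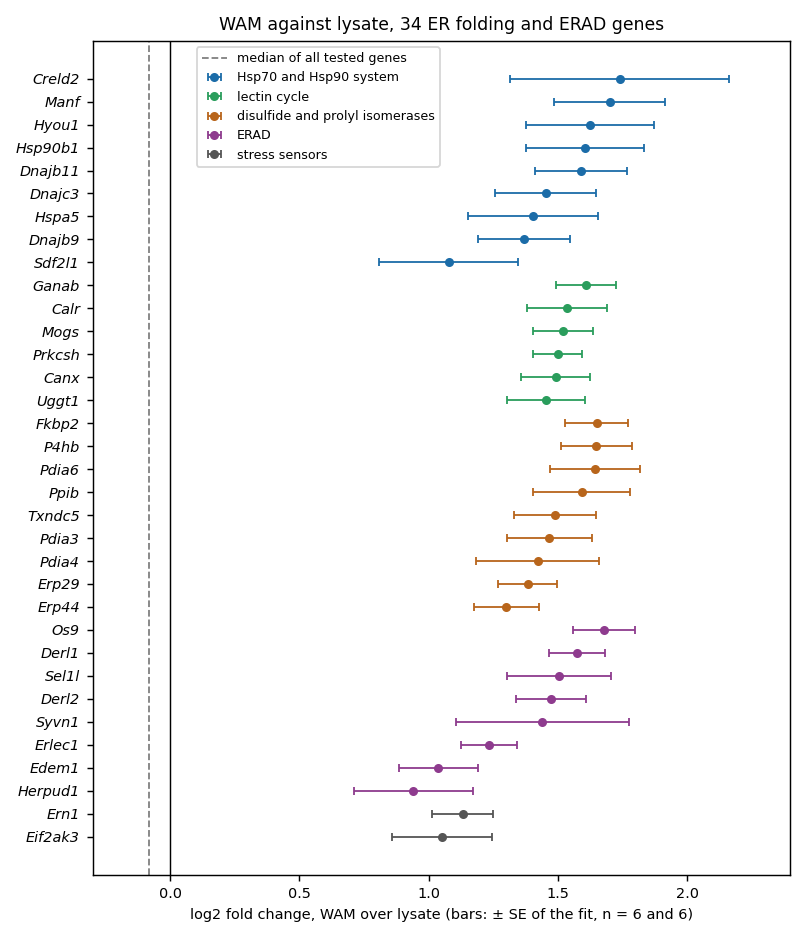
Log2 fold change of WAM over lysate for the 34 genes, grouped by role, with bars for ± SE of the edgeR fit (6 lysate and 6 WAM libraries). The points lie between 0.94 and 1.74, the dashed line marks the median of all tested genes at -0.08, and the 5 lowest points are those of Herpud1, Edem1, Eif2ak3, Sdf2l1 and Ern1.

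By role, the median log2 fold change was 1.59 for the 9 genes of the Hsp70 and Hsp90 system, 1.51 for 6 genes of the lectin cycle, 1.49 for 9 disulfide and prolyl isomerases, 1.46 for 8 ERAD genes and 1.09 for the 2 stress sensors. Of the 34, 23 were within 1 SE of the common median, with SEs from the fit on fraction alone. No gene differed from its neighbour in the order of fold changes by more than the larger SE of the pair. With 34 ordered values between 0.94 and 1.74 and SEs of 0.09 or more, neighbours lie this close almost whatever the data. It does not show that genes or roles are alike.

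The promoters of these genes were read because several of the genes moved together between animals, as described further on. Of the 34, 29 were matched to RefSeq promoters (GRCm38.p6), which run from 250 bases before the transcription start to 50 after it, and Derl1, Hyou1, Erlec1, Erp29 and Manf were not matched. The ER stress element was searched on both strands as CCAAT and CCACG separated by 9 bases. It was present in 8 of the 29, and in 37 of 27025 genes with a promoter (0.137%). The element is known from genes for ER chaperones and ERAD, and the 34 were chosen as such genes. Its higher share among them is therefore not an independent finding. The windows below hold each element with 10 flanking bases, 5′ to 3′ on the strand of the gene. Capitals mark the paired CCAAT and CCACG, or their reverse complements ATTGG and CGTGG where the element lies on the other strand.

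Hspa5, chr2:34772015-34772053, plus strand: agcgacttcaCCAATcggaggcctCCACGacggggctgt
Hsp90b1 (distal), chr10:86705628-86705666, minus strand: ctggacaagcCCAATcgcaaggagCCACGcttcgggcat
Hsp90b1 (proximal), chr10:86705523-86705561, minus strand: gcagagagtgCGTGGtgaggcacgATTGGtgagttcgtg
Creld2, chr15:88819510-88819548, plus strand: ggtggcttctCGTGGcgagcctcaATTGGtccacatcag
Dnajc3, chr14:118937817-118937855, plus strand: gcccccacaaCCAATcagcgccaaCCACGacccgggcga
Calr, chr8:84847065-84847103, minus strand: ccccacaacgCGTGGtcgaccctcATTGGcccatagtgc
Canx, chr11:50325790-50325828, minus strand: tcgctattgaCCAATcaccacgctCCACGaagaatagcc
Pdia6, chr12:17266481-17266519, plus strand: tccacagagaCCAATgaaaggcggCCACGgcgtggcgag
Syvn1, chr19:6046522-6046560, plus strand: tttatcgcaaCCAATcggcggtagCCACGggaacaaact

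The 8 genes include the main Hsp70 and Hsp90 chaperones, both lectins and the ERAD ligase, and Hsp90b1 holds 2 elements. The stretch upstream of the RefSeq start of Hspa5 is printed in full because it is the promoter in which the element is best known, and its capitals again mark the matched element, which begins 65 bases before the start. GENCODE places the start of the gene further upstream, so the element lies inside the gene span given for Hspa5 here.

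Hspa5 upstream, chr2:34771840-34772089, plus strand: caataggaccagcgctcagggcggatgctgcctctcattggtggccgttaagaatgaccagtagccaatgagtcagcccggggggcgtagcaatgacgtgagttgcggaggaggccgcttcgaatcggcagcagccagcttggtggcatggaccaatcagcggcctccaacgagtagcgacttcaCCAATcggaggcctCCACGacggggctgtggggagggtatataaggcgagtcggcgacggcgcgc

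A shorter variant, ERSE-II (ATTGG and CCACG separated by 1 base), was present in Herpud1 and Dnajb11, against 0.0444% of all genes with a promoter. In Dnajb11 it lies just past the start. Capitals mark the whole variant here.

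Herpud1, chr8:94386367-94386397, plus strand: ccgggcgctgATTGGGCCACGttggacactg
Dnajb11, chr16:22857847-22857867, plus strand: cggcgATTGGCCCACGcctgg

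The UPR element (TGACGTGG) was found in Txndc5 alone among the 29, against 0.714% of all genes. The single boxes were common among the 29, with CCAAT in 24 and CCACG in 24, against 41.1% and 35.5% of all genes, and each ER stress element counts toward both. Outside the 34, the ER stress element was found in 0 of 50 other ER folding genes, 1 of 29 other ERAD genes (Derl3), 0 of 30 genes of unfolded protein response signalling, and 0 of 45 cytosolic and mitochondrial chaperones. A match is a run of letters, not a shown binding site. The 8 genes with the element had a median WAM log2 fold change of 1.51 and the 21 without had 1.47.

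Hspa5 (ENSMUSG00000026864, chromosome 2, 34771970 to 34777547), which encodes the ER Hsp70 BiP, was the most abundant of the 34 per transcript length in both fractions. Its lysate values were 573, 1145 and 1181 CPM (lowest, median, highest) and its WAM values 1259, 2628 and 3925. Mouse 2 was lowest in both fractions, and its WAM library lay just above the highest lysate. The log2 fold change was 1.40 (SE 0.25, edgeR adjusted p = 0.000230). Hyou1, an Hsp110-type exchange factor for BiP, had 180, 312 and 386 CPM in lysates and 382, 927 and 1167 in WAM. Its groups met only because the WAM library of mouse 2 fell below the highest lysate, and its log2 fold change was 1.63 (SE 0.25, edgeR adjusted p = 6.10e-05).

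Hsp90b1 (ENSMUSG00000020048, chromosome 10, 86690209 to 86705509) encodes the ER Hsp90, which folds a narrower set of clients. It had 381, 722 and 790 CPM in lysates and 954, 2055 and 2585 in WAM, a log2 fold change of 1.60 (SE 0.23, edgeR adjusted p = 2.61e-05). The groups did not overlap, with mouse 2 again lowest in both. Creld2, a stress-inducible ER protein that assists folding, had the highest log2 fold change of the 34 at 1.74. Its error was the widest in the fit on fraction alone (SE 0.42, edgeR adjusted p = 0.00432). With the mouse as a block, its SE was 0.08 (edgeR adjusted p = 8.46e-12). Its values were 25.4, 78.4 and 116.6 CPM in lysates and 66.0, 271.6 and 399.1 in WAM. The groups overlapped through mouse 2, whose WAM value was below the lysate of each of the other 5 mice. Manf, a small ER protein that binds BiP and can be secreted, had 82.4, 140.3 and 163.4 CPM in lysates and 218, 437 and 539 in WAM (log2 fold change 1.70, SE 0.21). Its groups were separate.

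The J-domain partners of BiP were more even. Dnajb11, which delivers unfolded chains to BiP, was at a log2 fold change of 1.59 (SE 0.18), Dnajc3, a stress-induced co-chaperone, at 1.45 (SE 0.20), and Dnajb9, which also represses the Ern1 product, at 1.37 (SE 0.18). Sdf2l1, a companion of Dnajb11 in complexes with BiP, had 22.7, 48.3 and 66.3 CPM in lysates and 46.0, 102.4 and 124.7 in WAM. Its groups overlapped, and at 1.08 (SE 0.27) it had the lowest log2 fold change of the 9, which was 0.71 with the length trend taken off.

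In the lectin cycle, Calr, soluble calreticulin, had 420, 502 and 575 CPM in lysates and 925, 1433 and 1939 in WAM (log2 fold change 1.54, SE 0.16). Canx, its membrane-bound relative calnexin, had 228, 268 and 297 CPM in lysates and 516, 737 and 938 in WAM (1.49, SE 0.13). In both, every WAM library lay above every lysate. The glucose-trimming enzymes moved to a like degree. Ganab and Prkcsh, the catalytic and the noncatalytic subunit of glucosidase II, were at log2 fold changes of 1.61 (SE 0.12) and 1.50 (SE 0.09), and Mogs, glucosidase I, at 1.52 (SE 0.12). Prkcsh was the steadiest of the 34 between lysates, at 46.7 to 52.2 CPM, and rose to 119, 138 and 170 CPM in WAM. Uggt1, which marks misfolded glycoproteins for another round with the lectins, was at 1.45 (SE 0.15).

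P4hb (ENSMUSG00000025130, chromosome 11, 120560298 to 120573253), the archetypal protein disulfide isomerase, had 539, 645 and 702 CPM in lysates and 1617, 1948 and 2604 in WAM. The groups were far apart, and the log2 fold change was 1.65 (SE 0.14, edgeR adjusted p = 9.85e-08). Pdia3, which works with the lectins, was at 1.47 (SE 0.17), and Pdia6 and Txndc5, further thioredoxin-fold oxidoreductases, at 1.64 (SE 0.17) and 1.49 (SE 0.16). Pdia4 had 120.6, 230.3 and 276.6 CPM in lysates and 269, 601 and 758 in WAM (1.42, SE 0.24). Its groups touched, because the WAM value of mouse 2 fell within the range of the lysates. Erp44, which retrieves clients from the early Golgi, was at 1.30 (SE 0.13), and Erp29, a relative without an active redox site, at 1.38 (SE 0.11). The prolyl isomerases Ppib and Fkbp2 were at 1.59 (SE 0.19) and 1.65 (SE 0.12), and at 1.13 and 1.02 when a trend of fold change on transcript length was taken off. Erp29 and Ppib had estimated counts that were not whole in all 12 libraries, so their reads were shared with other transcripts.

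Among ERAD genes, Syvn1 encodes the membrane ubiquitin ligase at the centre of the pathway and Sel1l its scaffold. Syvn1 had 76.1, 186 and 252 CPM in lysates and 161, 470 and 677 in WAM, a log2 fold change of 1.44 (SE 0.33, edgeR adjusted p = 0.00274). The WAM library of mouse 2 lay within the range of the lysates and the other 5 lay above all of them. Sel1l had 145, 213 and 254 CPM in lysates and 286, 634 and 738 in WAM (1.51, SE 0.20), with separate groups. Os9 and Erlec1, lectins that hand glycoproteins to this complex, were at 1.68 (SE 0.12) and 1.23 (SE 0.11). Derl1 and Derl2, membrane proteins of the exit channel, were at 1.58 (SE 0.11) and 1.47 (SE 0.13).

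The lowest ERAD values belonged to Edem1, which trims mannose from misfolded glycoproteins, at 1.04 (SE 0.15), and to Herpud1, a stress-inducible organiser of the ligase complex. Herpud1 had 173, 252 and 332 CPM in lysates and 252, 470 and 668 in WAM. Its groups overlapped, and at 0.94 (SE 0.23, edgeR adjusted p = 0.00282) it was the 1 gene of the 34 under 2-fold, joined by Sdf2l1 with the length trend taken off.

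The 2 stress sensors are membrane proteins of the ER. Ern1, the kinase and ribonuclease that splices Xbp1 mRNA, had 76.8, 84.2 and 107.7 CPM in lysates and 153, 191 and 240 in WAM (log2 fold change 1.13, SE 0.12). Eif2ak3, the kinase PERK that slows translation, had 10.9, 14.1 and 19.7 CPM in lysates and 20.3, 27.6 and 40.6 in WAM (1.05, SE 0.19). Neither overlapped between fractions. Eif2ak3 was also the least abundant of the 34 per transcript length, at 7.0 ± 1.99 TPM in lysates (SD, n = 6).

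**Figure D2:**
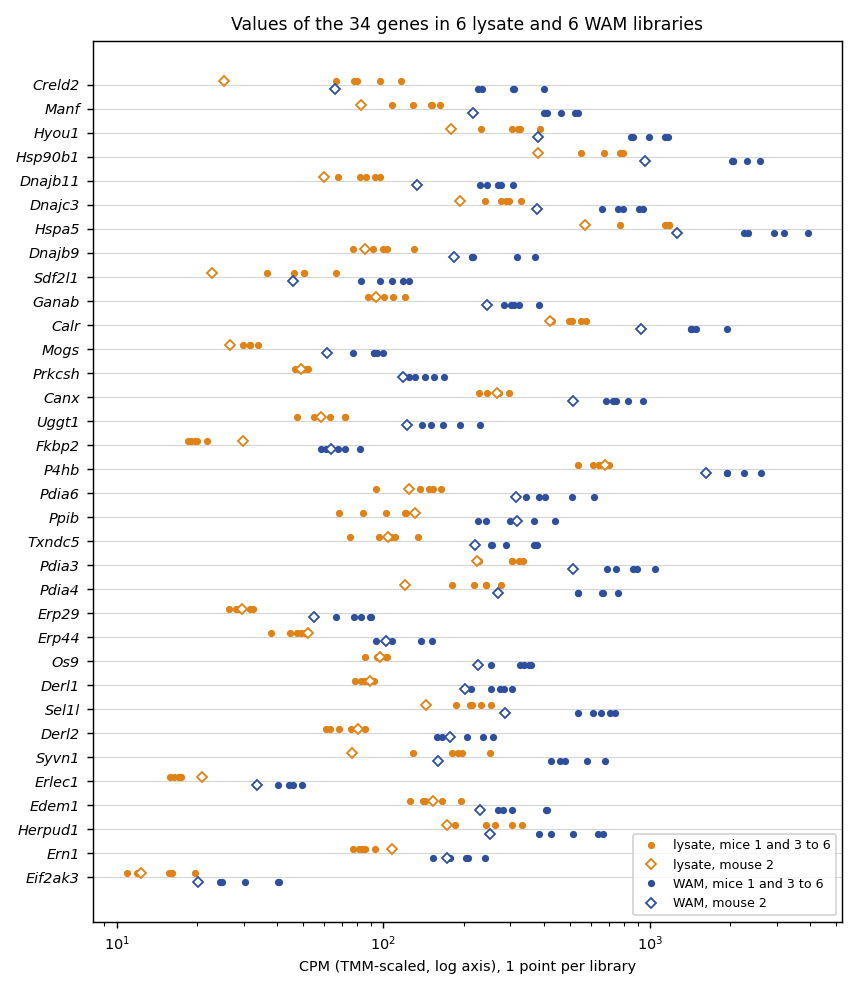
CPM of the 34 genes on a log axis, with 1 point per library (orange, 6 lysates; blue, 6 WAM libraries), and mouse 2 as open diamonds. In 28 genes the blue points lie to the right of all orange points, and in the other 6 the WAM diamond of mouse 2 reaches into the orange range.

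Within lysates, levels per transcript length spanned from 917 ± 272 TPM for Hspa5 to that of Eif2ak3 (SD, n = 6). Calr at 538 ± 84.9, P4hb at 502 ± 41.5, Hsp90b1 at 499 ± 137 and Manf at 416 ± 104 TPM followed Hspa5. The ranges over the 6 lysates overlapped for 31 of the 33 neighbours in this order. In WAM, P4hb stood second, at 662 ± 78.1 TPM, after Hspa5 at 767 ± 285. TPM in WAM are lowered by the larger mitochondrial share there, so the TPM of single genes are not set against each other between fractions.

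Summed over the 34 genes, the share of counts went from 0.942% ± 0.162 in lysates to 1.21% ± 0.24 in WAM (SD, n = 6 each), higher in 6 of 6 mice and a ratio of 1.28. When the mitochondrial mRNAs were removed from the total, it went from 0.968% to 1.47%, a ratio of 1.52. Taken over TPM instead, the share was 0.578% in lysates and 0.570% in WAM, with WAM above lysate in 3 of 6 mice. Removing the mitochondrial mRNAs there gave 0.612% and 0.776%, with WAM above lysate in 6 of 6. The sum was lowest in mouse 2 in both fractions by each of these measures.

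ER genes were then set against relatives that act in cytosol or mitochondria, because the difference of 2 genes in the same library does not depend on how libraries are scaled. In all 15 pairs, the ER gene was the more enriched in WAM in 6 of 6 mice (two-sided exact sign-flip permutation p = 0.03125 for each pair, the smallest that 64 assignments allow, and 0.03125 adjusted over the pairs). The pairs share genes and animals and were chosen with earlier results known. The mean difference in log2 (WAM over lysate) was 1.70 ± 0.36 (SD, n = 6) for Hspa5 minus Hspa8, the constitutive cytosolic Hsp70, and 1.81 ± 0.33 for Hspa5 minus Hspa9, the mitochondrial Hsp70. Hspa8 itself had a log2 fold change of -0.29 (SE 0.29, edgeR adjusted p = 0.410). Blocking on mouse, it was called lower at -0.33 (edgeR adjusted p = 0.00715). Hspa9 had -0.44 (SE 0.10, edgeR adjusted p = 0.00142).

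For Hsp90b1, the mean difference was 1.59 ± 0.20 against Hsp90ab1 and 1.58 ± 0.29 against Hsp90aa1, the cytosolic forms, and 2.04 ± 0.36 against Trap1, the mitochondrial form. These 3 values show the ER form apart from its relatives in either other compartment. The largest mean difference of the 15 was 2.29 ± 0.37, for Hyou1 minus its cytosolic relative Hspa4. J-domain genes differed by 1.96 ± 0.39 (Dnajb11 minus Dnajb1), 1.80 ± 0.47 (Dnajb11 minus Dnaja1) and 1.67 ± 0.37 (Dnajc3 minus Dnajc7). Dnaja1 itself was at -0.24 (edgeR adjusted p = 0.180) and was called lower with the mouse as a block (edgeR adjusted p = 0.0207). Prolyl isomerases differed by 1.46 ± 0.41 (Ppib minus cytosolic Ppia), 1.62 ± 0.39 (Ppib minus mitochondrial Ppif) and 1.79 ± 0.46 (Fkbp2 minus cytosolic Fkbp1a). P4hb minus Txn1, cytosolic thioredoxin, was 1.23 ± 0.42.

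The smallest mean difference was that of the eIF2α kinases. Eif2ak3 exceeded Eif2ak1, the heme-regulated kinase of the cytosol, by 0.35 ± 0.10, and this pair alone lost its call when the libraries were not paired by mouse (exact permutation, adjusted p = 0.102). Eif2ak1 was itself higher in WAM, with a log2 fold change of 0.69 (SE 0.07). Eif2ak3 exceeded Eif2ak4, the amino acid sensing kinase, by 1.98 ± 0.22. Of the relatives, Hspa8, Dnajb1, Dnaja1, Ppia and Eif2ak1 had estimated counts that were not whole in all 12 libraries, so part of their reads was shared with other transcripts.

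**Figure D3:**
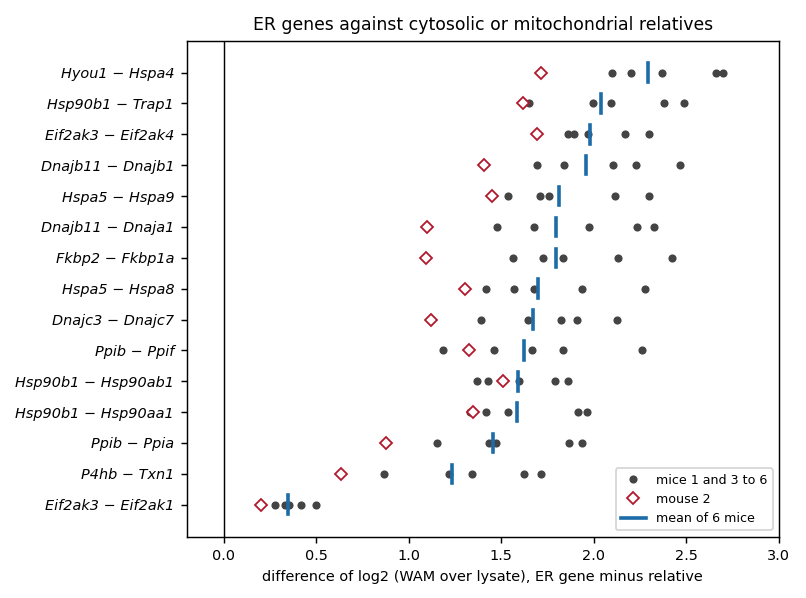
Difference of log2 (WAM over lysate) between an ER gene and its relative in each of 6 mice, for 15 pairs, with the mean as a bar and mouse 2 as open diamonds. All points lie right of 0, the mean differences run from 0.35 to 2.29, and mouse 2 is the lowest animal in 12 of 15 pairs.

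Other genes of the pathway were counted in lists outside the 34, with directions relative to the median of all genes. For comparison, 29.2% of all tested genes were called higher and 28.8% lower. Of 55 tested further ER folding genes, 54 were higher and 0 lower (0 also at an unadjusted p under 0.05 and by DESeq2, and 1 with limma on TPM plus 1), with a median log2 fold change of 1.38. Library totals, not re-centred, gave 26 higher and 4 lower. The highest were Cnpy3, a co-chaperone of Hsp90b1, at 1.66 (SE 0.14) and Emc10, a subunit of the ER membrane protein complex, at 1.65 (SE 0.10). The lowest were Emc2 at -0.23 (SE 0.12, edgeR adjusted p = 0.101, and adjusted p = 0.0392 with the mouse as a block) and Tor1aip2 at 0.36 (SE 0.09). Emc2 is known as the subunit of that complex on its cytosolic face, without a membrane anchor.

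Further ERAD genes rose in 25 of 38 cases and fell in 6, around a median log2 fold change of 1.14. With the re-centred authors' coefficient 20 rose and 0 fell, and with library totals, not re-centred, 7 rose and 17 fell. Selenos, a membrane selenoprotein of the ERAD complex, was highest at 1.68 (SE 0.13), followed by Ubac2 at 1.50 (SE 0.10). Vcp, the cytosolic ATPase that pulls chains out of the membrane, was lower at -0.50 (SE 0.09, edgeR adjusted p = 0.000355), and so was Ube2j1, a ubiquitin-conjugating enzyme with a membrane anchor at its tail, at -0.52 (SE 0.08, edgeR adjusted p = 6.88e-05). The remaining 4 called lower, named after their values were seen, were Ngly1, Nploc4, Ufd1 and Bag6. Another 7 genes of the list were not called.

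Unfolded protein response signalling was mixed, since 19 of its 33 tested genes rose and 6 fell (median log2 fold change 0.79). The count that fell was 2 without mouse 4 and 1 with the re-centred authors' coefficient, and library totals, not re-centred, gave 6 higher and 17 lower. Tmbim6, an ER membrane protein, was at 1.68 (SE 0.13) and Ddrgk1, an ER-anchored protein of the UFM1 pathway, at 1.67 (SE 0.11). Map3k5 and Nck1, cytosolic signalling proteins downstream of or next to the sensors, were lower at -0.82 (SE 0.11) and -0.40 (SE 0.10). Named after their values were seen, Atf6 and Creb3l3, which encode membrane-anchored transcription factors, were at 1.06 (SE 0.12) and 1.04 (SE 0.10), Xbp1 at 0.98 (SE 0.15), Atf4 at -0.09 (SE 0.13) and Ddit3 at 0.01 (SE 0.15). Neither Atf4 nor Ddit3 passed the test.

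Of 55 cytosolic and mitochondrial chaperone genes, 7 were higher, 14 lower and 34 not called, with a median of -0.19. The count lower is near the 28.8% of all tested genes and depended on the fit, at 28 when blocked on mouse, 7 without mouse 4, 1 with the re-centred authors' coefficient (2 higher) and 53 with library totals, not re-centred (0 higher). Dnajc19 and Hspe1, both of mitochondria, were highest at 0.90 (SE 0.09) and 0.70 (SE 0.16). Hspa4 and Dnajb4 were lowest, at -0.71 (SE 0.10) and -0.59 (SE 0.10). None reached a 2-fold change in either direction.

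The authors' deposited table of coefficient-scaled enrichment lists 1160 genes, and 24 of the 34 are in it. Their median enrichment there was 22.1%, against 15.4% for the whole list. In the authors' deposited table, 20 of the 24 were at 20% or more, against 31.0% of the list. Erp44 stood highest of the 24 at 29.5% (rank 22) and P4hb next at 28.6% (rank 26), while Herpud1 stood lowest at 14.3% (rank 609), all in the authors' deposited table. Herpud1 was thus lowest of the 24 there and lowest of the 34 on the TMM scale of counts, where Erp44 was among the lower members. Edem1, Ern1 and Eif2ak3, also low on the TMM scale, are not in the deposited table as used here. Hsp90b1, at 284 TPM or more in every WAM library, is absent too. In the count table, Hsp90b1, Pdia6 and Ppib carry the transcript type retained intron, and Erp29 and Edem1 that of nonsense-mediated decay. None of these is in the deposited table, and all 24 that are in it are labelled protein coding. The other absent genes, Uggt1, Mogs, Erlec1, Ern1 and Eif2ak3, are labelled protein coding too. Their lowest WAM values were 3.53 (Eif2ak3) to 18.5 TPM (Mogs), before division by the coefficient. Absence thus does not always mean low abundance, and the cause of absence was not tested.

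The animals differed from each other. The median log2 (WAM over lysate) of the 34 genes was 1.77 in mouse 1, 1.12 in mouse 2, 1.50 in mouse 3, 1.39 in mouse 4, 1.72 in mouse 5 and 1.32 in mouse 6. The median of all tested genes stayed between -0.11 and 0.01 in the same animals. Mouse 2 had the lowest ratio for 26 of the 34, against 23.9% of all tested genes, and also the lowest mitochondrially encoded share in WAM, at 12.5% of counts. Mouse 1, with the next lowest share in WAM at 14.3%, had the highest median ratio. In lysates, however, that share was lowest in mouse 1, at 2.19%, and highest in mouse 2, at 3.29%. The order of the shares in WAM is thus not the order of WAM over lysate. A link between the mitochondrial share and the ratio of the 34 genes was not tested. Without mouse 2, the median log2 fold change was 1.55 and without mouse 5 it was 1.45, with 34 called higher in each case.

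**Figure D4:**
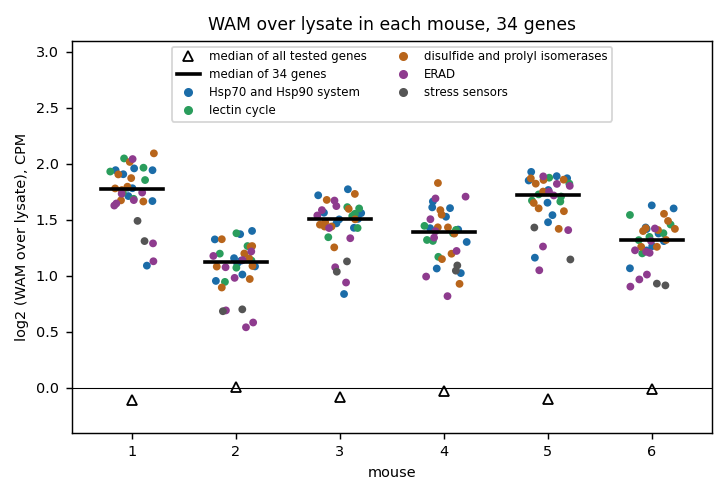
Log2 (WAM over lysate) of each of the 34 genes in each mouse, coloured by role, with the median of the 34 as a black bar and the median of all tested genes as an open triangle. The bars run from 1.12 in mouse 2 to 1.77 in mouse 1, the triangles lie near 0, and no point lies below 0.

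Lysates alone show how the genes vary between animals before fractionation. The highest lysate over the lowest was 1.62 at the median of the 34 genes, from 1.12 for Prkcsh to 4.59 for Creld2, against a median of 1.43 over all tested genes. It was 2 or more in 7 of the 34, against 17.4% of all tested genes, so the spread of the whole set is close to the background. The animal was the same in many cases. Mouse 2 had the lowest lysate for 14 of the 34, against 17.2% of all tested genes, and the lowest WAM library for 27 of the 34, against 19.4%. Mouse 5 had the lowest lysate for 15 of the 34, against 21.1% of all tested genes, and also the highest share of macrophage markers, at 0.0739% of lysate counts, whose part in these values was not tested. These comparisons of single animals were made after their values were seen, and no test was run on them.

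In the lysate of mouse 2, 8 of the 34 genes were at 0.6 or less of the median of the other 5 lysates, against 2.22% of all tested genes. Creld2 was at 25.4 CPM, against 66.5 to 116.6 CPM in the other lysates, a ratio of 0.320 to their median. Syvn1 was at 76.1 CPM, against 129 to 252, and Sdf2l1 at 22.7 CPM, against 36.8 to 66.3. Each of these 3 lay well below every other lysate. Hspa5 was at 573 CPM, against 771 to 1181, Hsp90b1 at 381, against 550 to 790, and Pdia4 at 120.6, against 180.5 to 276.6. Manf and Hyou1 completed the 8.

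Not all genes were low in that animal. For 12 of the 34 the ratio was above 1, among them Fkbp2, at 29.7 CPM against 18.5 to 21.8, and Erlec1, at 20.8 against 15.9 to 17.4. By role, the median ratio was 0.543 for the Hsp70 and Hsp90 system, in which mouse 2 was lowest for 8 of 9 genes, 0.932 for the lectin cycle, 1.04 for the isomerases, 1.02 for ERAD and 1.04 for the stress sensors. Over all tested genes it was 1.02. The low genes were thus mostly those of the Hsp70 and Hsp90 system, with Syvn1 and Pdia4 from other roles.

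The ratio of mouse 2 to the other lysates was lower among genes with an ER stress element in the sequences above. Its median was 0.587 for the 8 genes with the element, from 0.320 for Creld2 to 1.00 for Canx, and 4 of the 8 were at 0.6 or less. For the 21 genes without it, the median was 0.937, from 0.451 for Sdf2l1 to 1.51 for Fkbp2, and 2 of the 21 were at 0.6 or less. The 21 include Herpud1 (0.660) and Dnajb11 (0.694), which hold ERSE-II. Manf (0.543) and Hyou1 (0.563), not matched to a promoter, are in neither group. Of the 8 with the element, 4 are in the Hsp70 and Hsp90 system, so element and role overlap. With the element but outside the Hsp70 and Hsp90 system, the ratios were 0.827 for Calr, 1.00 for Canx, 0.838 for Pdia6 and 0.401 for Syvn1, so the element did not go with a low value in every gene. Derl3, the 1 gene outside the 34 in these lists with the element, was at 0.105, with a mean of 7.52 CPM over lysates and a WAM log2 fold change of 1.23 (edgeR adjusted p = 0.0752, against 4.70e-09 when blocked on mouse), and was named after its value was seen. Derl3 is also 1 of the 9 B and plasma cell markers, whose sum was lowest in mouse 2 in both fractions. These are values of 1 animal, and no test was run.

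**Figure D5:**
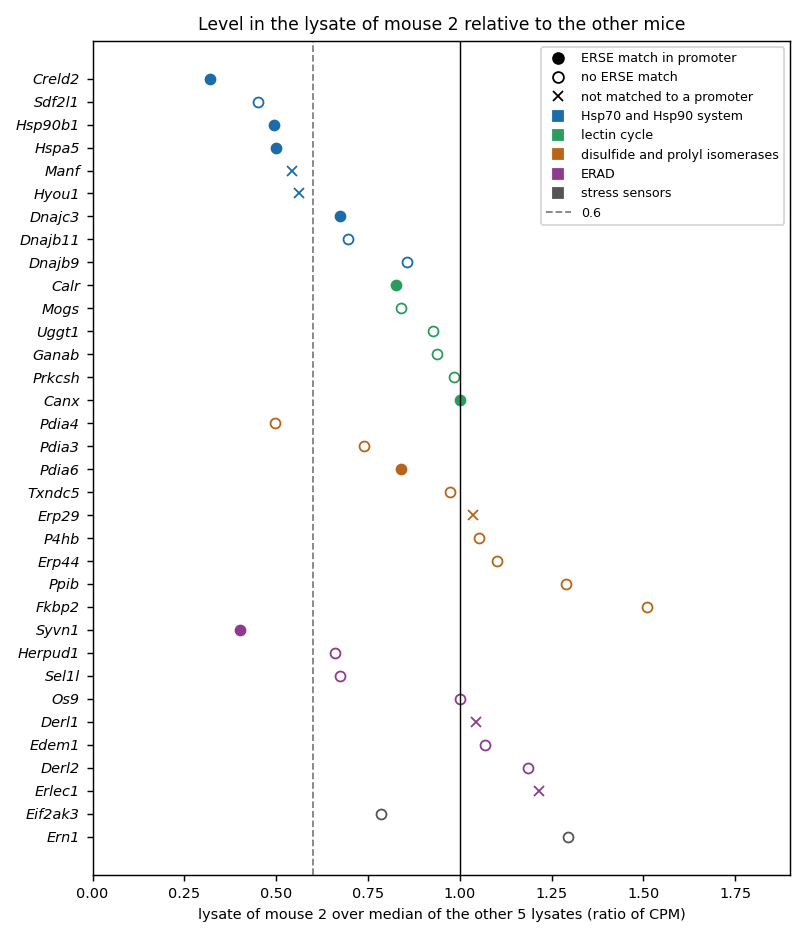
Lysate of mouse 2 over the median of the other 5 lysates (ratio of CPM) for the 34 genes, coloured by role; filled circles have an ER stress element in the promoter, open circles do not, and crosses were not matched. The dashed line marks 0.6, and 8 genes, 6 of them in the Hsp70 and Hsp90 system, lie at or left of it.

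The same animal was low for cytosolic chaperones too, with the lowest lysate for 45.5% of that list, against 10.9% of the further ER folding genes and 17.2% of all tested genes. Hepatocyte markers made up 6.37% of the counts of its lysate, the same as the median of the 6 lysates. Its macrophage and endothelial markers, at 0.0318% and 0.0212% of lysate counts, lay within the range of the other lysates, 0.0188% to 0.0739% and 0.0177% to 0.0269%. The top of the macrophage range is that of mouse 5, and the median of the 6 lysates was 0.0243%. Gene by gene, the ratio of mouse 2 to the other lysates had a median of 1.51 over 12 macrophage markers and 1.06 over 10 endothelial markers. Its B and plasma cell markers were the lowest of the 6 animals, at 0.0177% of lysate counts (highest lysate 0.0217%) and 0.0207% of WAM counts (highest 0.0270%). Its neutrophil markers were also lowest, at 0.000338% of lysate counts and 0.000303% of WAM counts. Only 1 of these 8 markers passed the filter on low counts, so the sums rest on few reads and their order carries little weight. The part of other cell types in the low chaperone values was not tested.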

How the data were processed

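Poly(A) RNA of 6 lysates and 6 WAM fractions was sequenced from directional libraries, per the labels' protocols. Tools named in the submitters' processing notes, with no role given, are kallisto 0.44.0, fastp 0.12.4, R 3.5.0 and DESeq2 1.20.0. The build is not given in the sources used here. Deposited by the authors were estimated counts per gene (48042 lines, 35498 genes after 1 line per Ensembl identifier was kept) and TPM. Their deposited enrichment score is WAM TPM, divided by a mitochondrial coefficient, over lysate TPM in percent, for transcripts at 5 or more such TPM in every WAM library, per the file headers. Another 60 per-sample columns were left unused.

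Estimated counts were rounded (32.5% of non-zero values were not whole within 1e-06). The 11181 genes that passed filterByExpr held at least 99.7% of each library and were fitted in edgeR 4.0.16 (R 4.3.3) with TMM scaling and quasi-likelihood tests on fraction alone, with Benjamini-Hochberg adjustment and a threshold of 0.05. CPM are TMM-scaled, and log2 CPM carry a prior count of 2. DESeq2 1.42.0 and limma 3.58.1 on log2 TPM plus a pseudocount were alternatives, as were other scalings, no filter, a length trend taken off, each mouse left out, and the mouse as a block. The fit was tested on simulated data.

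The count columns name the mouse, so lysate and WAM of equal number come from 1 animal. Their deviations from the group means correlated at 0.45 to 0.77 (across genes), against at most 0.40 between animals, and 6 of 6 WAM libraries correlated best with their own lysate. No libraries of a group were alike within sampling noise (chi-square per degree of freedom 12.3 or more), and edgeR's biological coefficient of variation came to 20.6% for lysates and 23.8% for WAM. Intervals and errors rest on these 6 animals.

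The 34 genes, the other lists and the pairs were chosen with earlier results of these data known. Named are all 34, both genes of each pair, and in each other list the 2 genes that rose most and the 2 at the bottom, at a mean of 10 CPM or more. Gene positions were looked up by Ensembl identifier in GENCODE M21 (GRCm38), and promoters are those of RefSeq (GRCm38.p6). Of the metabolic genes read after the data were seen, 1 is not reported here.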

Additional observations from a re-analysis of the deposited data

Results flagged for a closer look

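Of 68 groups of 6 libraries (34 genes in 2 fractions), 3 held a library far from the other 5. By chance about 1 in 20 groups is flagged, so 3 of 68 is about the number that chance gives. All 3 belonged to mouse 2. Hsp90b1, the ER Hsp90, was at 954 CPM in the WAM of mouse 2, against 2039 to 2585 CPM in the other WAM libraries. Fkbp2, an ER prolyl isomerase, was at 29.7 CPM in its lysate, above the 18.5 to 21.8 CPM of the other lysates. Erlec1, an ERAD lectin, was at 20.8 CPM in its lysate, above the 15.9 to 17.4 CPM of the other lysates. The first gene was low in that animal and the other two were high.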

How the results depend on the processing

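With library totals, 18 of 34 genes were called higher and their median log2 fold change was 0.36, and after the mitochondrial mRNAs were removed from those totals it was 0.61. With the authors' coefficient, 0 were higher, 34 were lower, 11114 genes were called in all and the median was -1.84. The median of all tested genes moved to -1.19, -0.94 and -3.35 in these 3 fits. After re-centring at that median, an alternative chosen after seeing the data, 34 were higher in each. Re-centring takes off the shift between fractions, so this agreement in direction is largely built in. With the re-centred authors' coefficient 2850 genes were called, against 6478 on the TMM scale. The ratio of the summed share of counts, 1.28, was 1.52 without the mitochondrial mRNAs and 0.985 as TPM. Leaving out each mouse in turn gave 5756 to 6266 genes called, 34 to 34 of the 34 higher, 0 to 0 lower, a median of 1.42 to 1.55, 15 to 15 pairs in the same direction, and a share ratio of 1.24 to 1.31. With 5 mice the exact test of a pair cannot pass 0.05. With the mouse as a replicate block, 34 were higher and 0 lower, the median was 1.47 and 7785 genes were called; beyond Emc2, Hspa8, Dnaja1, Derl3 and the count of cytosolic chaperones, it changed no other call of a gene named here. Without pairing by mouse, 14 of 15 pairs kept their call. DESeq2, no filter and limma on TPM gave 34 higher and medians of 1.31 to 1.51. Of 544 alternative values of single genes, all relative to the median of all genes where the scaling was changed, 537 moved by less than the spread between replicates or kept their call, from 0.68 to 1.94. With a trend of fold change on length taken off, Sdf2l1 was at 0.71, Manf at 1.19, Creld2 at 1.46, Uggt1 at 1.72, Erp29 at 1.05, Ppib at 1.13 and Fkbp2 at 1.02, and the cause was not tested. Depth did not limit the 34, the least abundant of which had a median of 14.1 CPM in lysates, while 6 animals set the precision.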

Other observations

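Genes of hepatic carbohydrate and lipid metabolism, chosen after the data were seen, were read in the lysate of mouse 2 beside its low chaperones. Srebf1, the transcription factor of lipid synthesis, was at 150 CPM, against 12.8 to 149 CPM in the other 5 lysates, and Fasn, fatty acid synthase, at 805 CPM, against 73.2 to 655. Both were the highest of the 6 lysates. G6pc, which releases glucose from liver, was also highest, at 364 CPM, against 97.3 to 313. Pck1, of gluconeogenesis, at 916 CPM against 753 to 1475, and Igfbp1, at 9.75 CPM against 4.18 to 38.6, lay within the range of the other animals.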
